A study of Mus musculus with 15 samples.

Results

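Epithelial mucosal defence genes encode proteins with which the gut lining meets luminal bacteria. The group described here was chosen by name and held 8 genes of the 78298 rows in the count files: Pigr, Lcn2, Duox2, Duoxa2, Nos2, Saa1, Saa2 and Slpi. Every gene matched exactly 1 row. Of the 8, 6 passed the filter on low counts and were tested among 17560 genes, and Saa1 and Saa2 were not. Lcn2 and Slpi passed that filter only through the spheroid libraries, where they were high, so a difference from the organoids was built into their passing.

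The data were poly-A RNA-seq libraries from mouse small intestinal organoids, which are three-dimensional primary cultures of gut epithelium grown in Matrigel without immune or stromal partners, in 5 groups of 3 libraries. All cultures descended from small intestinal crypts of adult female mice bred with C57BL/6J, and the study used both wild-type and LGR5::DTR-EGFP animals. It gives a wild-type background for the doubly transduced SOX9 lines, while the background of the cultures sequenced as organoids is not given in the sources used here. Every group, the control included, carried a lentiviral transgene under the weak ubiquitous L30 promoter with puromycin resistance. Halo-NLS organoids, the control, expressed V5-tagged Halo with a nuclear localization signal, whereas Sox9-Halo organoids and Sox9-mEGFP organoids expressed the transcription factor SOX9 fused to Halo or to mEGFP. The 2 spheroid groups came from later passages of the SOX9 lines, after the cultures had become spherical, and carried a second transgene: histone H2B fused to mEGFP with zeocin resistance in Sox9-Halo spheroids, and H2B fused to mScarletI with neomycin resistance in Sox9-mEGFP spheroids. Morphology, time in culture, the second transgene and possibly the mouse background therefore cannot be told apart. Each SOX9 fusion was represented by 1 line, polyclonal at its start, so the replicate libraries measured the spread between cultures of 1 line and not between lines or mice.

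Libraries held 28062722 to 40559766 counts on genes, and the log2 levels of replicates correlated with r between 0.960 and 0.994. Sox9 itself, counted from the endogenous gene and the transgene together, stood at 9.10 to 22.9 CPM (counts per million-count library) in the control and at 193 to 705 CPM in 11 of the 12 SOX9 libraries. The remaining one, Sox9-Halo organoids replicate 1, held only 39.8 CPM, and values without it are given beside some of the results on that group. Epithelial markers (7 of 7, among them Epcam and Cdh1) summed to 5705 to 12176 CPM in every library. The 13 leukocyte markers summed to 2.15 to 5.13 CPM over the organoid groups, 3.61 to 6.05 CPM in Sox9-mEGFP spheroids and 0.318 to 0.617 CPM in Sox9-Halo spheroids, and the pan-leukocyte gene Ptprc averaged at most 0.212 CPM in any group. The 10 markers of stroma and endothelium summed to between 0.317 and 4.31 CPM.

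The 8 genes cover several arms of the barrier. Pigr encodes the receptor that carries dimeric IgA from the basal side of the epithelium to the lumen. Duox2 is a dual oxidase that makes hydrogen peroxide at the apical membrane, Duoxa2 is the maturation factor that it needs to leave the endoplasmic reticulum, and Nos2 is the inducible nitric oxide synthase. Lcn2 is a siderophore-binding protein that withholds iron from bacteria, Slpi is a secreted inhibitor of neutrophil elastase with antibacterial activity, and Saa1 and Saa2 are serum amyloid A proteins that bind retinol and are induced in gut epithelium by cytokines. In the intestine many of these genes are known to respond to microbes and to the cytokines IL-17, IL-22 and TNF, through NF-kB, STAT and C/EBP factors.

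CPM values were scaled by the trimmed mean of M-values (TMM). A gene was called changed when edgeR's quasi-likelihood test gave an adjusted p of at most 0.01 over all genes tested, the fold change was at least 2 and the mean normalized count was at least 10. In bulk RNA, fewer cells expressing a gene and less RNA per expressing cell cannot be told apart.

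**Figure D1:**
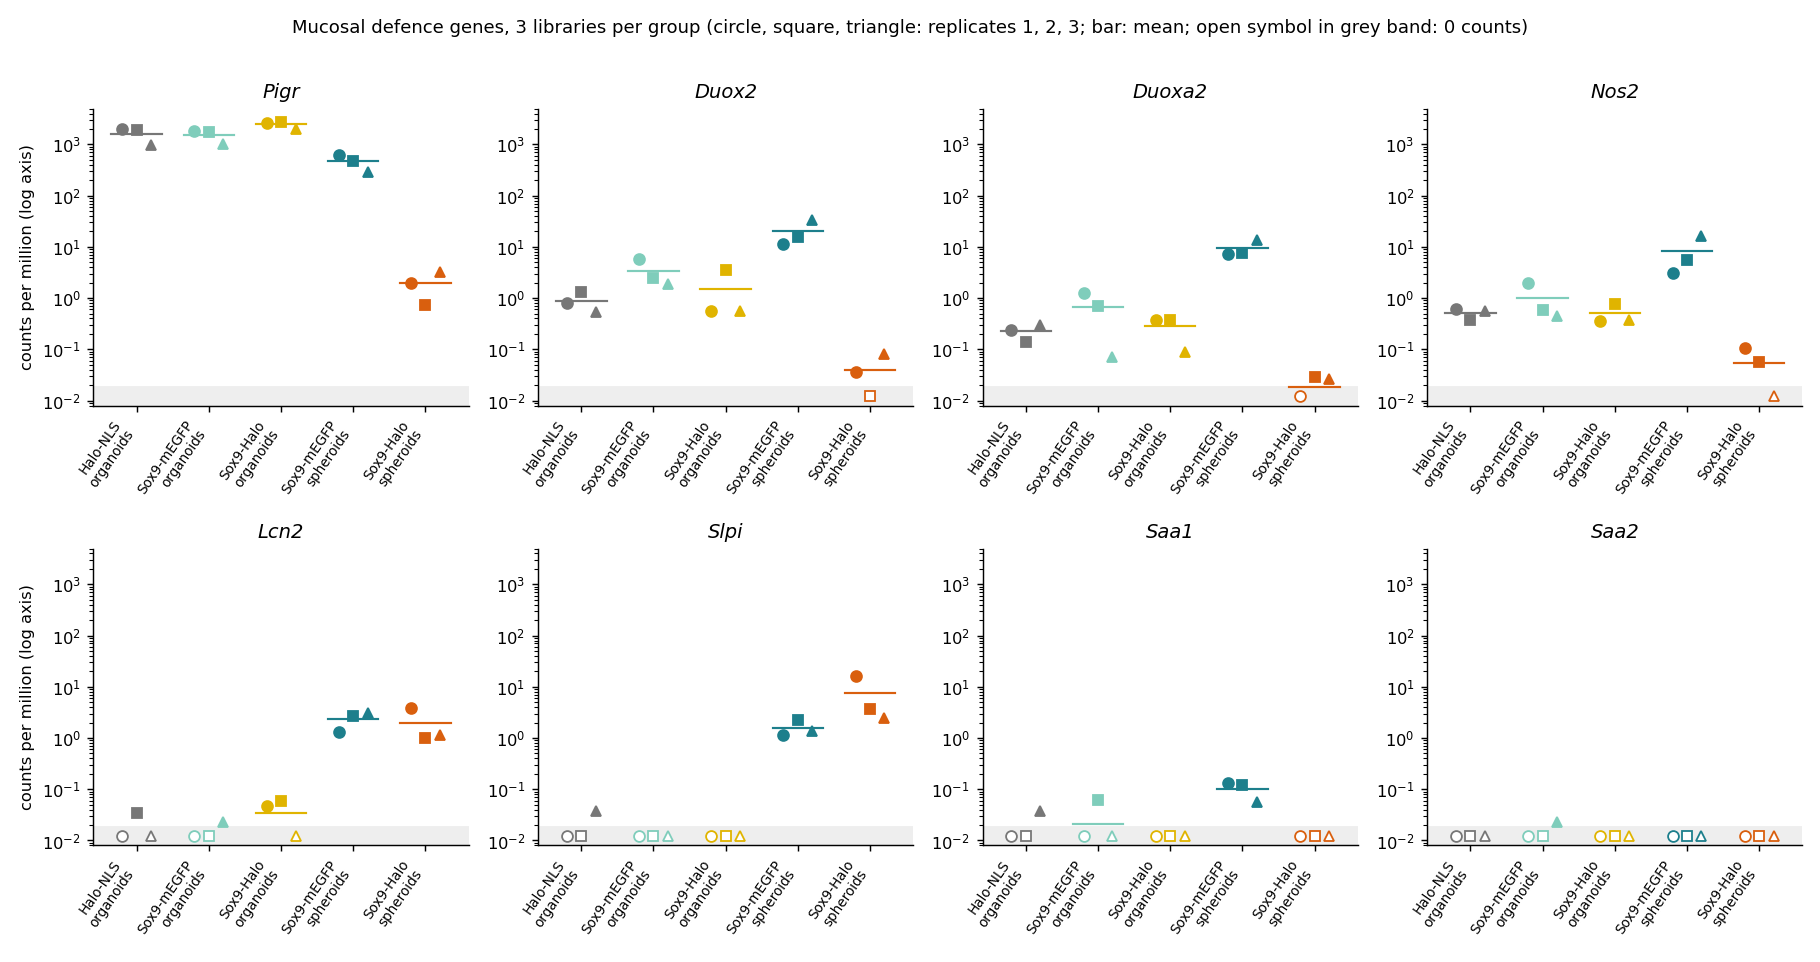
CPM of the 8 genes in each of the 15 libraries, on a log axis, with 1 symbol per library, a bar at the mean of the 3 libraries no bar where that mean falls in the grey band, and open symbols in the grey band for libraries with 0 counts. Pigr lies between 955 and 2785 CPM in the 9 organoid libraries and between 0.733 and 3.17 CPM in Sox9-Halo spheroids, Duox2, Duoxa2 and Nos2 are high in Sox9-mEGFP spheroids alone, and Lcn2 and Slpi are high in both spheroid groups.

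The level of the genes differed widely within the organoids. Per kilobase of annotated exon, Pigr averaged 397 CPM per kb in Halo-NLS organoids, against 0.140 for Duoxa2, 0.132 for Duox2 and 0.117 for Nos2, whose ranges over the 3 libraries overlapped. Lcn2, Saa1 and Slpi averaged at most 0.0106 CPM per kb there and Saa2 was at 0. In Sox9-mEGFP spheroids the order was Pigr (115 CPM per kb), Duoxa2 (5.88), Duox2 (2.98), Nos2 (1.89), Slpi (1.35), Lcn2 (0.903) and Saa1 (0.0390), and the ranges of Duoxa2 and Duox2, of Duox2 and Nos2, of Nos2 and Slpi and of Slpi and Lcn2 overlapped. In Sox9-Halo spheroids Slpi stood first at 6.37 CPM per kb, followed by Lcn2 at 0.756 and Pigr at 0.487, which overlapped, and the remaining 5 genes averaged at most 0.0122 CPM per kb. The length joins the exons of all annotated transcripts of a gene, so it can exceed that of the main mRNA. It also includes stretches shared with other genes, where reads were not counted. These orders depend on that length. In Sox9-mEGFP spheroids Lcn2 averaged 2.37 CPM and Slpi 1.59 CPM before the division.

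Pigr (ENSMUSG00000026417, GRCm39 chr1:130754397-130779986, plus strand) was the only abundant member and the only one lower in both spheroid groups. Its level was 1995, 1871 and 955 CPM in Halo-NLS organoids, 1819, 1727 and 1025 CPM in Sox9-mEGFP organoids and 2633, 2785 and 2029 CPM in Sox9-Halo organoids. The 3 organoid groups did not separate from the control beyond the test: the log2 fold change against Halo-NLS was -0.08 ± 0.41 (SE) for Sox9-mEGFP organoids (edgeR adjusted p = 0.912) and 0.63 ± 0.41 for Sox9-Halo organoids (edgeR adjusted p = 0.276), although all 3 Sox9-Halo organoid libraries lay above all 3 control libraries. Without the low-Sox9 replicate 1 the latter was 0.59 (adjusted p = 0.417). In Sox9-mEGFP spheroids Pigr fell to 629, 470 and 294 CPM, and in Sox9-Halo spheroids to 2.01, 0.733 and 3.17 CPM. No spheroid library overlapped an organoid library.

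Against Halo-NLS organoids the fall of Pigr was 3.46-fold in Sox9-mEGFP spheroids (log2 fold change -1.79 ± 0.43, edgeR adjusted p = 0.00311) and 813-fold in Sox9-Halo spheroids (-9.67 ± 0.61, edgeR adjusted p = 1.28e-08). The first call was lost without Halo-NLS organoids replicate 2 (adjusted p = 0.0108) and without Sox9-mEGFP spheroids replicate 2 or 3 (0.0135 and 0.0175), at log2 values between -1.82 and -1.57. Measured from the organoids of the same line, Pigr fell 3.28-fold in the mEGFP line (-1.71 ± 0.42, edgeR adjusted p = 0.00636) and 1256-fold in the Halo line (-10.29 ± 0.62, edgeR adjusted p = 1.05e-08). The latter was -10.25 without the low-Sox9 organoid library and -10.89 without Sox9-Halo spheroids replicate 3. The mEGFP-line call was lost without organoid replicate 1 or 2 (adjusted p = 0.0249 and 0.0222) or spheroid replicate 2 or 3 (0.0243 and 0.0339), at log2 values between -1.76 and -1.51. Over the 15 libraries, the genes whose log2 levels were most like that of Pigr were Muc13, a transmembrane mucin of the brush border (Pearson r = 0.996), the ubiquitin ligase Trim31 (0.995) and the apical transporter Abcc2 (0.995). These correlations describe libraries that fall into groups and carry no test.

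The window around the Pigr start is shown because it alone among those searched matched the SOX core, and SOX9 binding there was not tested. It is RefSeq's window from 250 bases before to 50 bases after the transcription start, found at 1 place in GRCm39 (chr1:130754171-130754470, plus strand), and capitals mark matches to the motifs searched, a SOX core AACAAT at position -160 from the start (counted without a 0) and a STAT pattern TTCNNNGAA at position 40.
Pigr: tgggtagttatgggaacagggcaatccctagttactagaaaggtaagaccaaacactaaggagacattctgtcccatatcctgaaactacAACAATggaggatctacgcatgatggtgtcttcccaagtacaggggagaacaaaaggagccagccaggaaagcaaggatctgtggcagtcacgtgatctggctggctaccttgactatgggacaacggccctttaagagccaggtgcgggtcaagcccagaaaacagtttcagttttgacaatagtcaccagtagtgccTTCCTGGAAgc

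The 4 motifs were searched on both strands of such windows, which were given for 7 of the 8 members (all but Nos2): kappaB GGANNTTCC, STAT TTCNNNGAA, C/EBP TTNNGNAA and SOX AACAAT. Over all 32851 windows of the table, 4.26% held the kappaB pattern, 8.30% the STAT pattern, 40.7% the C/EBP pattern and 10.7% the SOX core. Among the 7 windows, 0 held kappaB, 1 held STAT and 1 held SOX (both in Pigr), and 5 held C/EBP (Lcn2, Duox2, Saa1, Saa2 and Slpi). A match is a run of letters and not a measured site.

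Duox2 and its maturation factor Duoxa2, which serve hydrogen peroxide production, and Nos2, which makes nitric oxide, rose in the spheroids of the mEGFP line and stood at 0 to 3 counts per library in those of the Halo line. Duox2 (ENSMUSG00000068452, GRCm39 chr2:122109728-122128930, minus strand) and Duoxa2 (ENSMUSG00000027225, chr2:122129380-122133366, plus strand) lie head to head, with 672 bases between the RefSeq starts. Their 2 windows are shown because the genes share this stretch and moved together. The first lies at chr2:122128659-122128958 on the minus strand and the second at chr2:122129131-122129430 on the plus strand, both in GRCm39 with 1 match each, and capitals mark the C/EBP pattern at position -190 of Duox2. The Duoxa2 window held none of the 4 motifs.
Duox2: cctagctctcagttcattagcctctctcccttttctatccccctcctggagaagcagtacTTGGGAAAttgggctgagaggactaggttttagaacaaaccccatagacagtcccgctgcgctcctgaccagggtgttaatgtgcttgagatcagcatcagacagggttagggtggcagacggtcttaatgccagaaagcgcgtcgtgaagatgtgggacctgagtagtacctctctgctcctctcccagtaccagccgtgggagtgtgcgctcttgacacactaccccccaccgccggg
Duoxa2: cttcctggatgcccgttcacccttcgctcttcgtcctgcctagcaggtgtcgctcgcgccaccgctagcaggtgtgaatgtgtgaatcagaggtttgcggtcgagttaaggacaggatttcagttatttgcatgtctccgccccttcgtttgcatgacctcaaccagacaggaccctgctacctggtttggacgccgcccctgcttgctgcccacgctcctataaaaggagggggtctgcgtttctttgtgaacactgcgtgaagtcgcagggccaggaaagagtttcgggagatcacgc

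Duox2 stood at 21, 39 and 14 counts in Halo-NLS organoids (0.818, 1.33 and 0.524 CPM), at 157, 80 and 80 counts in Sox9-mEGFP organoids (5.68, 2.48 and 1.86 CPM) and at 24, 120 and 19 counts in Sox9-Halo organoids (0.569, 3.48 and 0.552 CPM). It reached 435, 528 and 1173 counts in Sox9-mEGFP spheroids (11.5, 15.8 and 33.3 CPM) but only 1, 0 and 3 counts in Sox9-Halo spheroids (0.0353, 0 and 0.0805 CPM). Every Sox9-mEGFP spheroid library lay above, and every Sox9-Halo spheroid library below, all 9 organoid libraries. Sox9-mEGFP organoids also lay above the control in all 3 libraries, but the log2 difference of 1.89 ± 0.72 did not pass (edgeR adjusted p = 0.0817). With no filter on low counts it was called, at an adjusted p of 4.58e-05.

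Duoxa2 followed the same course at lower counts. It held 6, 4 and 8 counts in Halo-NLS organoids, 35, 23 and 3 in Sox9-mEGFP organoids, 16, 13 and 3 in Sox9-Halo organoids, 275, 249 and 472 in Sox9-mEGFP spheroids, and 0, 1 and 1 in Sox9-Halo spheroids. The Sox9-mEGFP spheroids were again apart from every other library, at 7.27, 7.43 and 13.4 CPM against at most 1.27 CPM elsewhere. Annotated exons of Duoxa2 overlap those of Duoxa1 on the opposite strand over 42.8% of their bases, and counting ignored strand, so reads there were counted for neither gene. Duoxa1 held 45 counts over the Sox9-mEGFP spheroids and 34 over the Sox9-Halo spheroids, and the paralogous oxidase Duox1 held 27 and 37.

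Nos2 (ENSMUSG00000020826, GRCm39 chr11:78811613-78851080, plus strand) held 16, 11 and 15 counts in Halo-NLS organoids (0.623, 0.376 and 0.562 CPM), 55, 19 and 19 in Sox9-mEGFP organoids (1.99, 0.588 and 0.441 CPM) and 15, 27 and 13 in Sox9-Halo organoids (0.356, 0.783 and 0.378 CPM). In Sox9-mEGFP spheroids it reached 117, 185 and 582 counts (3.09, 5.52 and 16.5 CPM), and in Sox9-Halo spheroids it held 3, 2 and 0 counts (0.106, 0.0564 and 0 CPM). The 2 spheroid groups lay on opposite sides of all 9 organoid libraries. Sox9-mEGFP spheroids replicate 3 was the highest of its group for Duox2, Duoxa2 and Nos2, and the lowest for Pigr.

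Against Halo-NLS organoids the rises in Sox9-mEGFP spheroids were 22.4-fold for Duox2 (log2 fold change 4.49 ± 0.77, edgeR adjusted p = 0.000273), 41.6-fold for Duoxa2 (5.38 ± 0.75, edgeR adjusted p = 4.67e-05) and 16.1-fold for Nos2 (4.00 ± 0.72, edgeR adjusted p = 0.000412), and none of these 3 calls was lost when any of the 6 libraries was left out. Without Sox9-mEGFP spheroids replicate 3 the log2 change of Nos2 was 3.04. Against Sox9-mEGFP organoids the rises were 6.08-fold for Duox2 (2.60 ± 0.69, edgeR adjusted p = 0.00991), 14.2-fold for Duoxa2 (3.82 ± 0.66, edgeR adjusted p = 0.00045) and 8.48-fold for Nos2 (3.08 ± 0.67, edgeR adjusted p = 0.00268). The Duox2 call against its own organoids lay at the threshold. It was lost without organoid replicate 2 or 3 (adjusted p = 0.0522 and 0.0466) or any of the spheroid replicates (0.0103, 0.019 and 0.0578 without replicates 1, 2 and 3), at log2 values between 2.01 and 2.86. Without organoid replicate 1 it was 3.22 for Duox2, 4.64 for Duoxa2 and 4.02 for Nos2, and without organoid replicate 3 that of Duoxa2 was 3.19, all 4 of them calls. That of Nos2 was lost without organoid replicate 2 or 3 (0.0203 and 0.0139) or spheroid replicate 3 (0.0221), at log2 values between 2.09 and 2.79.

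In Sox9-Halo spheroids Duox2 fell 20.8-fold against Halo-NLS organoids (log2 fold change -4.38 ± 1.08, edgeR adjusted p = 0.00366) and 35.4-fold against Sox9-Halo organoids (-5.15 ± 1.04, edgeR adjusted p = 0.000938). With 4 counts in those spheroids, the ratios of summed counts had 95% counting intervals of 8.58 to 86.3 and 14.2 to 138. The second value was -5.55 without Sox9-Halo organoids replicate 1, -3.71 without replicate 2, which held 120 of the 163 organoid counts, and -6.34 without Sox9-Halo spheroids replicate 3. Without that spheroid library the first was -5.54, and each of these 4 values was called. The first call was lost without Halo-NLS organoids replicate 2 (adjusted p = 0.0154) and without Sox9-Halo spheroids replicate 1 or 2 (0.015 and 0.0178), at log2 values between -4.32 and -3.82. Duoxa2, with 2 counts over the group against 18 in the control, gave a ratio of 11.1-fold lower with a 95% counting interval of 2.67 to 99.1, and did not pass (edgeR adjusted p = 0.04). Nos2, with 5 counts against 42, differed by -3.27 ± 1.01 and did not pass either (edgeR adjusted p = 0.0146). Against Sox9-Halo organoids Duoxa2 was not called (edgeR adjusted p = 0.0205, ratio 14.6-fold lower with a 95% counting interval of 3.72 to 125), and neither was Nos2 (-3.23 ± 0.99, edgeR adjusted p = 0.0164). When the fit held only those 6 libraries, Nos2 passed without a replicate block (adjusted p = 0.00727) and with one (paired log2 fold change -3.29, adjusted p = 0.0073). With no filter on low counts Duoxa2 and Nos2 were called against Halo-NLS and against Sox9-Halo organoids. DESeq2 called Nos2 in both comparisons (adjusted p = 0.00105 and 0.00139) and Duoxa2 in the second (0.00633). Counting intervals cover counting error only.

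Lcn2 and Slpi rose in the spheroids of both lines from almost no counts in any organoid library. Passing the low-count filter only through the spheroids built in this direction, so the p-values given below do not test it. The windows of Lcn2 and Slpi are shown because these 2 members were higher in the spheroids of both lines. Capitals mark the C/EBP pattern, at position -216 of Lcn2 and at positions -241, -223 and -64 of Slpi. Both windows lie on the minus strand of GRCm39, at chr2:32277702-32278001 for Lcn2 and chr2:164198378-164198677 for Slpi, with 1 match each.
Lcn2: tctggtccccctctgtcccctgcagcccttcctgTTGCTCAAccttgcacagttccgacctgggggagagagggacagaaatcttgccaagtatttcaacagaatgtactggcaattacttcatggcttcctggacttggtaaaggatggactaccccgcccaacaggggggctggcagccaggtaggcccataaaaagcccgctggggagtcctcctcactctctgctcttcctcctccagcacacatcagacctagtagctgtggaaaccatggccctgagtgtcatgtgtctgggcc
Slpi: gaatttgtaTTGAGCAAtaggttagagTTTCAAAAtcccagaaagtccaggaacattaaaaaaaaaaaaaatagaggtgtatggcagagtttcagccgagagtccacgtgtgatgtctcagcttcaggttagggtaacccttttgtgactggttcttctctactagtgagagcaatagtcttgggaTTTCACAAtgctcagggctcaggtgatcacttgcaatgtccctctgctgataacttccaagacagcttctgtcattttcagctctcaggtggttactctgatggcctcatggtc

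Lcn2 (ENSMUSG00000026822, GRCm39 chr2:32274645-32278264, minus strand) held 6 counts over the 9 organoid libraries, with no library above 2. It held 49, 92 and 108 counts in Sox9-mEGFP spheroids (1.30, 2.75 and 3.07 CPM) and 108, 35 and 43 counts in Sox9-Halo spheroids (3.81, 0.987 and 1.15 CPM). All 6 spheroid libraries lay above all 9 organoid libraries, and the 2 spheroid groups overlapped. From 1 count in the control, the ratio was 191-fold (95% counting interval 33.9 to 7563) in Sox9-mEGFP spheroids (edgeR adjusted p = 2.77e-05) and 150-fold (26.6 to 5963) in Sox9-Halo spheroids (edgeR adjusted p = 2.91e-05). From the organoids of the same line it was 241-fold (42.8 to 9548) in the mEGFP line (edgeR adjusted p = 2.62e-05) and 51.1-fold (19.6 to 189) in the Halo line (edgeR adjusted p = 3.48e-05).

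Slpi (ENSMUSG00000017002, GRCm39 chr2:164195990-164231015, minus strand) held 1 count in the control and 0 counts in the 6 libraries of Sox9-mEGFP and Sox9-Halo organoids. It held 44, 74 and 49 counts in Sox9-mEGFP spheroids (1.16, 2.21 and 1.39 CPM) and 464, 132 and 91 counts in Sox9-Halo spheroids (16.4, 3.72 and 2.44 CPM). Every Sox9-Halo spheroid library lay above every Sox9-mEGFP spheroid library, with replicate 1 of the former far above its group. Against the control the ratio was 128-fold (95% counting interval 22.6 to 5082) in Sox9-mEGFP spheroids (edgeR adjusted p = 0.00109) and 555-fold (99.2 to 21941) in Sox9-Halo spheroids (edgeR adjusted p = 7.44e-05). Against the organoids of the same line, all at 0, it was at least 53.8-fold higher in the mEGFP line (edgeR adjusted p = 0.000806) and at least 252-fold higher in the Halo line (edgeR adjusted p = 4.39e-05), with 3 counts over the organoid group as the floor. None of these calls of Slpi and Lcn2 was lost when any 1 library was left out. This adds no support, since both genes passed the low-count filter only through the spheroids. Without Sox9-Halo spheroids replicate 1 the fitted log2 change against the control fell from 6.95 to 6.09 for Lcn2 and from 8.87 to 7.61 for Slpi, and from 5.64 to 4.77 for Lcn2 against Sox9-Halo organoids. Without a library that held the only organoid count of Lcn2 or Slpi in a group, the ratio of counts has no upper bound. The fitted change is then finite but depends on the prior count. Exons of Slpi share 23.8% of their bases with Matn4 and a microRNA gene on the same strand, and Matn4 held 3 counts over the Sox9-mEGFP spheroids and 0 over the Sox9-Halo spheroids.

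**Figure D2:**
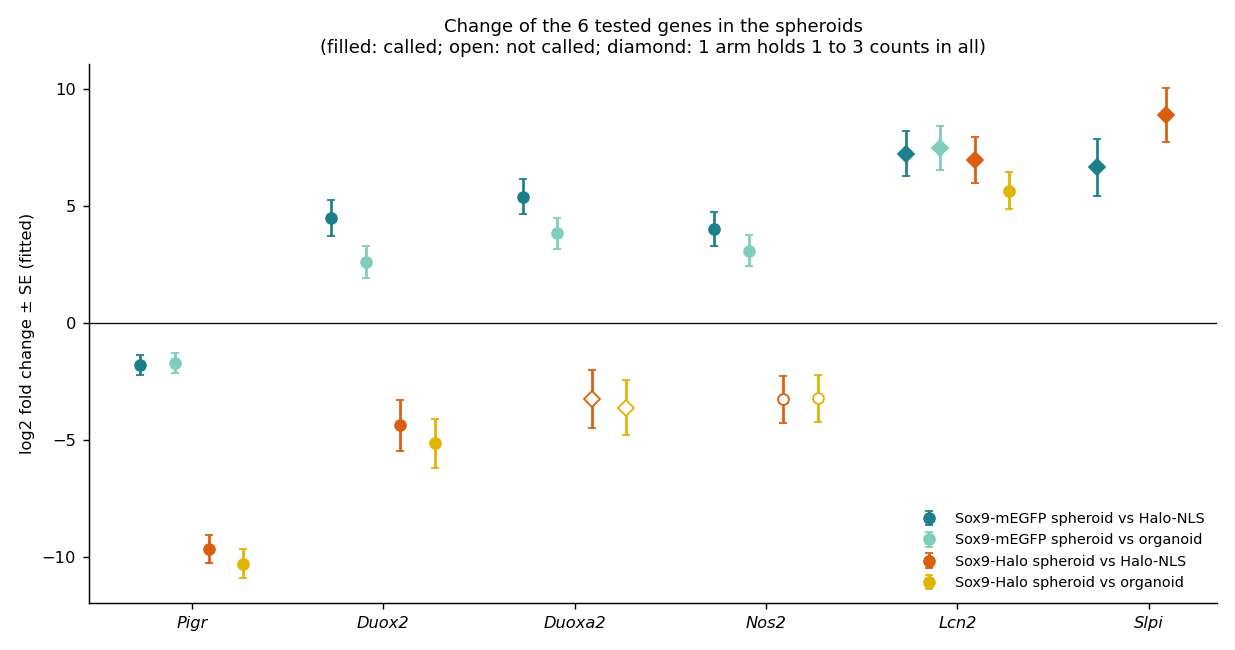
Fitted log2 fold change with a standard error derived from the test for the 6 tested genes in 4 comparisons, spheroids of each line against Halo-NLS organoids and against the organoids of the same line. Filled symbols passed the call rule, diamonds mark comparisons in which 1 arm held 1 to 3 counts, and Slpi against its own organoids is not drawn because those were at 0. Pigr is below 0 in all 4, Duox2, Duoxa2 and Nos2 lie above 0 in the mEGFP line and below 0 in the Halo line, and Lcn2 and Slpi lie above 0 in every comparison drawn.

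Saa1 and Saa2 were at the edge of detection. Saa1 (ENSMUSG00000074115, GRCm39 chr7:46389916-46392547, minus strand) held 5, 4 and 2 counts in Sox9-mEGFP spheroids, 1 count over Halo-NLS organoids, 2 over Sox9-mEGFP organoids and 0 over the 6 libraries of the Halo line. The 11 counts of the Sox9-mEGFP spheroids made a ratio of 8.43 to the control with a 95% counting interval of 1.22 to 363. Saa2 (ENSMUSG00000057465, GRCm39 chr7:46401214-46403737, plus strand) held 1 count in all 15 libraries, in Sox9-mEGFP organoids replicate 3. The paralogs Saa3 and Saa4 held 36 and 3 counts over the 15 libraries. Pooled over all their annotated transcripts, Saa1 and Saa2 share 72 windows of 150 bases, the read length. These are 1.80% of the pooled windows of Saa1 and 2.51% of those of Saa2. The share within the main mRNA of each gene was not computed and can be larger. Only uniquely aligned reads were counted. Both genes were removed by the filter on low counts, and no test of them is given.

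Counted over the group, 0 of 8 members were called in Sox9-mEGFP organoids against Halo-NLS organoids by edgeR, where 2.76% of all genes tested were called, and 0 in Sox9-Halo organoids, where 3.75% were. Both shares rest on single control libraries: the 484 and 659 genes behind them became 2184 and 2370 without Halo-NLS organoids replicate 1, and 216 and 201 without replicate 2. DESeq2 also called 0 in both. At an unadjusted p under 0.05, edgeR gave 1 member (Duox2) and 0 members. In Sox9-mEGFP spheroids against Halo-NLS 6 members were called, 5 higher and Pigr lower, where 27.5% of all genes were called, 15.3% higher and 12.1% lower. In Sox9-Halo spheroids 4 were called, Lcn2 and Slpi higher and Pigr and Duox2 lower, where 28.9% of all genes were called, 13.6% higher and 15.3% lower. Both counts include Lcn2 and Slpi, which passed the low-count filter only through the spheroids, so their being higher was built in. Scaling by library sizes alone, which put the median of all genes at 0.29 and 0.28, turned the split over all genes from 2690 higher and 2133 lower to 3333 and 1500 in Sox9-mEGFP spheroids, and from 2392 and 2682 to 3102 and 2229 in Sox9-Halo spheroids. The 2 comparisons share the control libraries. With any 1 library left out, the first count lay between 5 and 6 and the second between 3 and 4.

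Within the mEGFP line, from organoids to spheroids, 6 members were called, 5 higher and 1 lower, where 16.4% of all genes were called, and within the Halo line 4 were called, 2 higher and 2 lower, where 25.3% were. Here too Lcn2 and Slpi are among those higher in each line, which their passing of the filter had built in. The count in the mEGFP line dropped to 3 without Sox9-mEGFP organoids replicate 2 and to 3 without Sox9-mEGFP spheroids replicate 3. The count in the Halo line was 4 whichever library was left out, the low-Sox9 Sox9-Halo organoids replicate 1 among them. For 4 of the genes the change itself differed between the lines, by a test of the interaction that called 7.39% of all genes. The change in the Halo line minus that in the mEGFP line was -8.58 ± 0.68 on the log2 scale for Pigr (edgeR adjusted p = 9.4e-07), -7.75 ± 1.25 for Duox2 (0.000595), -7.44 ± 1.27 for Duoxa2 (0.000941, with 2 counts over the Sox9-Halo spheroids) and -6.31 ± 1.17 for Nos2 (0.00188). The Nos2 call was lost with a replicate block over the 12 libraries of both lines (paired value -6.28, adjusted p = 0.0124). Without the low-Sox9 library the 4 values were -8.54, -8.15, -7.15 and -6.52, all called. With any other library left out they were called too, between -8.91 and -6.31 for Duox2 (without Sox9-Halo spheroids replicate 3 and organoids replicate 2), -8.26 and -6.78 for Duoxa2 (without Sox9-mEGFP organoids replicates 1 and 3) and -7.25 and -5.38 for Nos2 (without Sox9-mEGFP organoids replicate 1 and spheroids replicate 3). For Lcn2 it was -1.84 ± 1.62, resting on 1 and 4 counts in the organoids of the mEGFP and Halo lines, and did not pass (edgeR adjusted p = 0.559), and for Slpi no fold could be given with both organoid groups at 0.

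Of the 8 members, 0 were called between Sox9-Halo and Sox9-mEGFP organoids by edgeR, 0 by DESeq2 and 0 at an unadjusted p under 0.05, where 0.456% of all genes were called, and 0 were called without the low-Sox9 library. Between the 2 spheroid groups 4 members were called, all lower in Sox9-Halo spheroids, where 13.2% of all genes were called. They were Pigr (234.9-fold lower, log2 difference -7.88 ± 0.56, edgeR adjusted p = 1.38e-07), Duox2 (467.8-fold lower, -8.87 ± 1.05, edgeR adjusted p = 1.62e-05, with a counting interval of 198 to 1861 for the ratio of summed counts), Nos2 (155-fold lower, -7.28 ± 0.93, edgeR adjusted p = 3.51e-05) and Duoxa2 (edgeR adjusted p = 1.08e-05), whose 2 counts against 996 gave a ratio of 472-fold lower with a 95% counting interval of 130 to 3906. Lcn2 was not called between the spheroid groups (-0.27 ± 0.52, edgeR adjusted p = 0.76), and Slpi was higher in Sox9-Halo spheroids without passing (2.24 ± 0.66, edgeR adjusted p = 0.0299). DESeq2 called Slpi there (adjusted p = 0.00795). The leukocyte markers were also lower in Sox9-Halo spheroids, with 12 of the 13 at 3 counts or fewer in each library, and their part in these differences was not tested. In Sox9-mEGFP spheroids Csf1r averaged 3.19 CPM, while Ptprc averaged 0.0945, Cd3e 0.0271 and Adgre1 0 CPM. The epithelial markers Vil1 and Epcam averaged 118 and 461 CPM in Sox9-Halo spheroids against 768 and 1053 CPM in Sox9-mEGFP spheroids, and their part was likewise not tested.

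**Figure D3:**
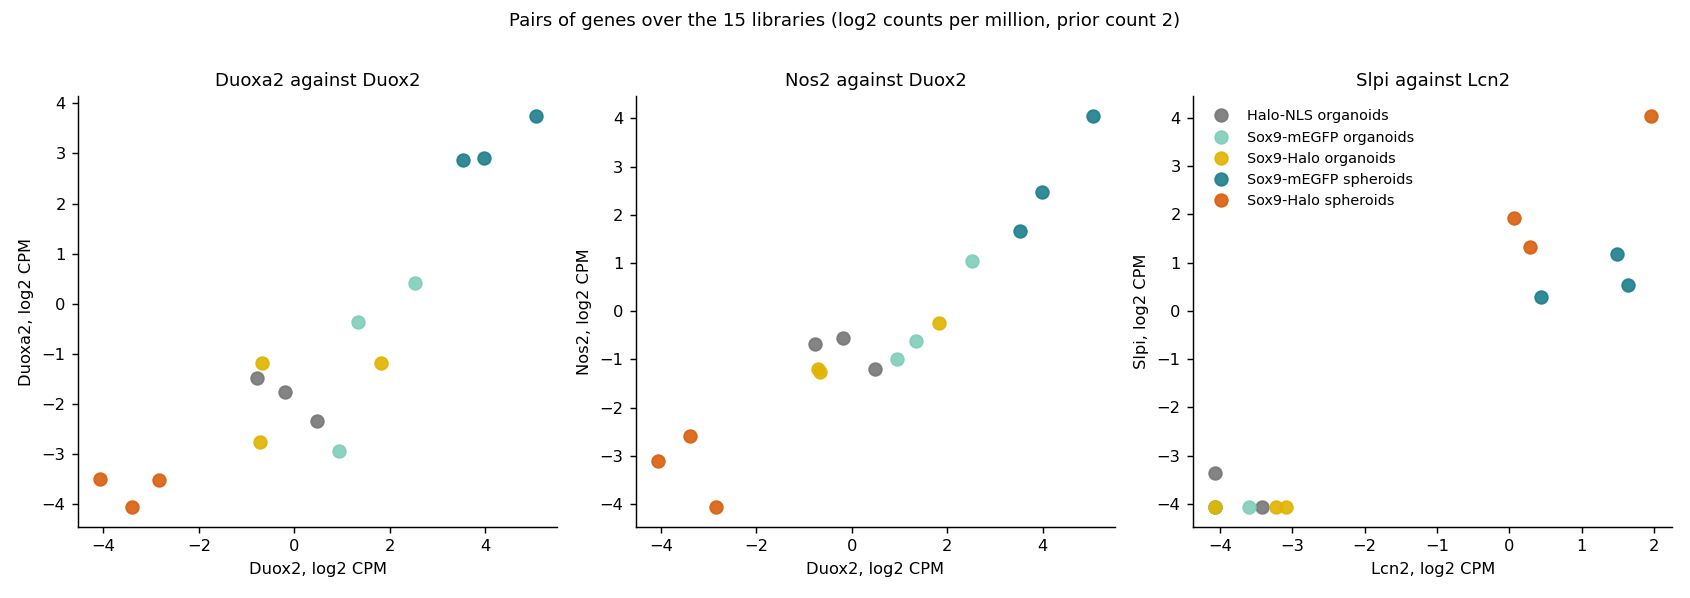
Log2 CPM (prior count 2) of Duoxa2 and Nos2 against Duox2 and of Slpi against Lcn2, with 1 point per library coloured by group. The Duox2 panels run from Sox9-Halo spheroids through the organoids to Sox9-mEGFP spheroids, whereas in the Slpi panel all organoid libraries sit in the lower left corner and both spheroid groups in the upper right.

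Across the 15 libraries the 6 tested members fell into 3 patterns. The log2 levels of Duox2 correlated with those of Nos2 at r = 0.942 and of Duoxa2 at r = 0.903, and Duoxa2 with Nos2 at r = 0.937. Lcn2 correlated with Slpi at r = 0.951 and with Duox2 at r = 0.04. Lcn2 and Slpi held almost no organoid counts and passed the filter only through spheroids, so a high r between them was built in. Pigr correlated with Slpi at r = -0.850 and with Duox2 at r = 0.628. The points fall into 5 groups of 3 libraries, and the values are a description without a test. The genes most like Duox2, searched at a mean of at least 100 normalized counts, were Bmp2, a secreted growth factor of the villus (r = 0.958), the hypoxia-inducible factor Hif3a (0.949) and the prohormone-processing carboxypeptidase Cpe (0.942). Cpe was also nearest to Nos2 (0.970), followed by the MYC antagonist Mxd1 (0.943), while Fhl1, a LIM-domain protein, was nearest to Duoxa2 (0.969). Lcn2 was most like Vamp5 (0.981), Hrct1 (0.981) and the gastric protease Ctse (0.980), and Slpi was most like the water channel Aqp5 (0.981), the caveolar protein Cavin2 (0.980) and the ceramide synthase Cers3 (0.980). A high r of Lcn2 or Slpi with any gene high only in both spheroid groups was likewise built in.

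The wider defence programme was read from 9 lists of other genes, of which the SAA family list had no tested gene. Among the IgA transport genes, 1 of 8 tested rose and 1 fell in each spheroid group against Halo-NLS. Over all genes 15.3% rose and 12.1% fell in Sox9-mEGFP spheroids, and 13.6% rose and 15.3% fell in Sox9-Halo spheroids. Exoc4, an exocyst subunit, rose by a log2 fold change of 2.49 ± 0.24 in Sox9-mEGFP and 3.16 ± 0.25 in Sox9-Halo spheroids, and Fcgrt, the neonatal IgG receptor, changed by -2.29 ± 0.61 and -6.24 ± 0.81 (edgeR adjusted p between 1.15e-07 and 0.00649 for these 4 values). The vesicle proteins Rab25 and Myo5b were not called in either, with log2 values between -0.73 and 0.07. The list's median was 0.33 and 0.38, beside 0.03 and -0.01 for all genes tested.

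Among the other NADPH oxidase genes, 0 of 5 tested were called higher in either spheroid group. Of all genes, 15.3% were higher in Sox9-mEGFP and 13.6% in Sox9-Halo spheroids. Cyba, the p22phox subunit, averaged 64.1 CPM in Halo-NLS organoids, 16.3 and 4.84 CPM in Sox9-mEGFP and Sox9-Halo organoids, and 0.00995 and 0.0386 CPM in the spheroids, and was called lower in both spheroid groups and in both organoid groups (edgeR adjusted p = 0.00835 and 0.000232 for the organoids). The organizer Noxo1 was not called in either spheroid group (0.75 ± 0.44 and -0.35 ± 0.46). Duox1 averaged 0.0250 CPM in the control and 0.256 and 0.361 CPM in the spheroids, and Duoxa1 0, 0.421 and 0.364 CPM, both under the mean count that a call needed. Beside Nos2, the arginine metabolism list had 1 gene of 9 higher in each spheroid group, Ass1, which makes the precursor of arginine and rose by 4.95 ± 0.39 and 3.50 ± 0.37. Arg2, a mitochondrial arginase, changed by -3.09 ± 0.63 and -5.73 ± 0.73, and Spr, which makes the nitric oxide synthase cofactor tetrahydrobiopterin, by -1.07 ± 0.24 and -1.57 ± 0.25. Sox9-mEGFP spheroids had 2 genes of this list lower and Sox9-Halo spheroids 3, where 12.1% and 15.3% of all genes were lower.

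Relatives of Slpi and Lcn2 went in different directions. Of 8 tested antiproteases, 2 rose in Sox9-mEGFP spheroids, and 2 rose and 2 fell in Sox9-Halo spheroids, where 27.5% and 28.9% of all genes were called. Wfdc18 averaged at most 0.423 CPM in organoids and 10.7 and 11.6 CPM in the Sox9-mEGFP and Sox9-Halo spheroids. Wfdc2, a WAP-domain protein like Slpi, averaged 160 CPM in Sox9-Halo spheroids and at most 0.0987 CPM in every other group (against Sox9-mEGFP spheroids 11.37 ± 0.54, edgeR adjusted p = 3.1e-09). Serpinb1a, an inhibitor of neutrophil proteases, changed by 1.30 ± 0.30 in Sox9-mEGFP spheroids (edgeR adjusted p = 0.00248) and by -3.20 ± 0.32 in Sox9-Halo spheroids (edgeR adjusted p = 1.09e-06).

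Among 12 other soluble antibacterial genes, 5 rose and 3 fell in Sox9-mEGFP spheroids, and 2 rose and 6 fell in Sox9-Halo spheroids, with medians of -0.25 and -3.84. Of all genes, 15.3% rose and 12.1% fell in the former spheroids, and 13.6% rose and 15.3% fell in the latter. Lactoferrin (Ltf), which like Lcn2 withholds iron, rose in both, from 0.342 CPM in the control to 33.7 and 422 CPM, and the peptidoglycan recognition protein Pglyrp1 rose from 108 to 1755 and 472 CPM. The goblet cell lectin Itln1 fell from 527 CPM to 2.14 and 3.12 CPM. Lypd8, which keeps flagellated bacteria off the epithelium, stood at 33.2 CPM in Sox9-mEGFP and 0.0890 CPM in Sox9-Halo spheroids, and Dmbt1, a scavenger receptor that aggregates bacteria, at 333 and 0.891 CPM. Both were lower in Sox9-Halo spheroids (edgeR adjusted p = 4.43e-07 and 1.35e-05), and Zg16 was at 0 in all 3 of those libraries.

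**Figure D4:**
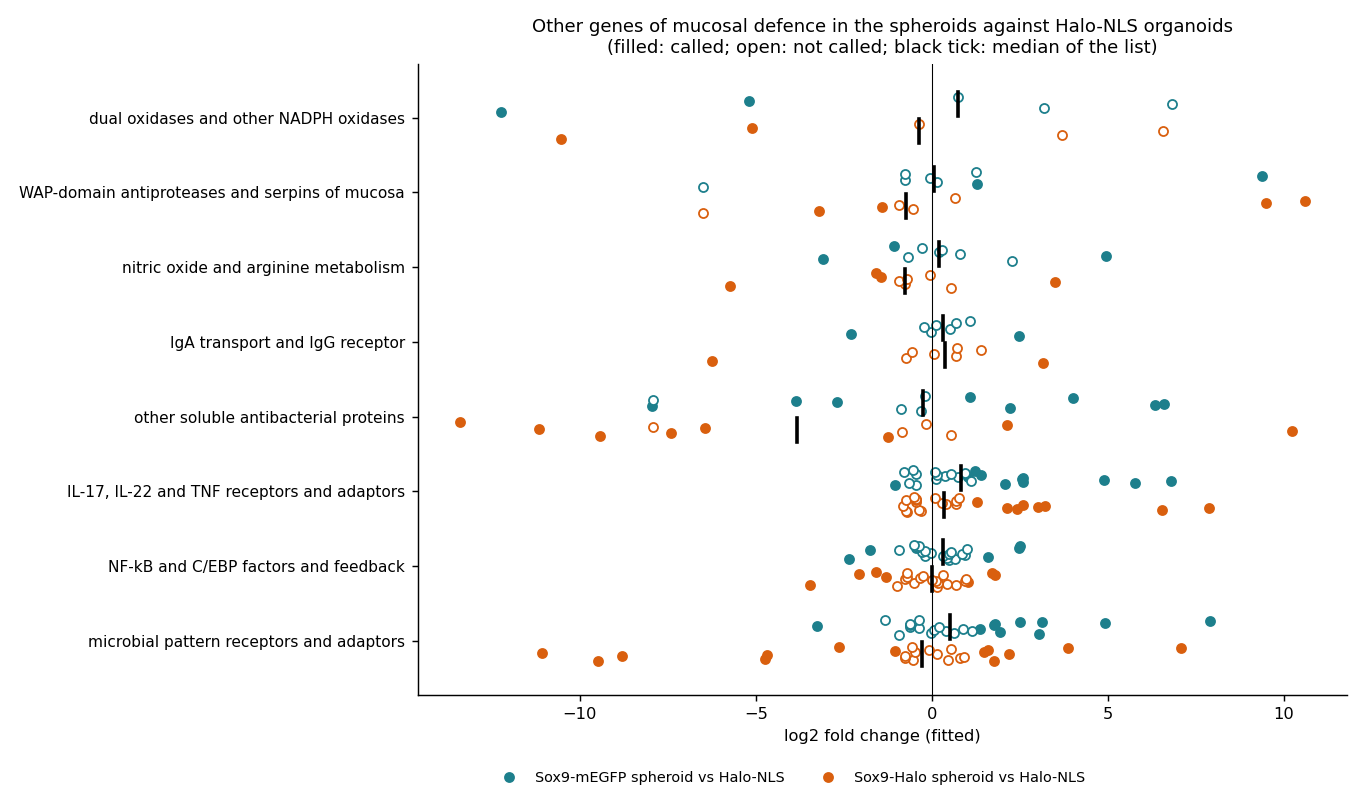
Fitted log2 fold change of each tested gene of 8 lists in Sox9-mEGFP and Sox9-Halo spheroids, both against the same Halo-NLS organoids, with filled symbols for called genes and a black tick at the list's median. The fitted value of a gene with few or no counts in 1 arm depends on the prior count. The soluble antibacterial list has its median at -0.25 in Sox9-mEGFP and -3.84 in Sox9-Halo spheroids.

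The receptors and factors upstream of these genes were read from 3 lists. Of 24 tested receptors and adaptors for IL-17, IL-22, TNF, IL-6 and the IL-1 family, 10 rose and 1 fell in Sox9-mEGFP spheroids and 8 rose and 0 fell in Sox9-Halo spheroids, with medians of 0.85 and 0.34, beside 15.3% higher and 12.1% lower, and 13.6% higher and 15.3% lower, over all genes in the 2 groups. Genes of IL-6 and the IL-1 family (Il6ra, Il6st, Il1r1, Il1rn and Il18r1) made 5 of these 10, and with Il1rap 6 of these 8. Il17re, the receptor chain for IL-17C, rose from 1.08 CPM to 59.1 and 101 CPM, and Il1r1 from 0.0380 to 4.56 and 9.61 CPM. Stat3 was not called in either (0.54 ± 0.28 and 0.68 ± 0.28). Among 23 NF-kB and C/EBP genes, 3 rose and 2 fell in Sox9-mEGFP spheroids and 3 rose and 4 fell in Sox9-Halo spheroids. The shares over all genes beside these counts are those given above for the receptors. Rel rose by 2.49 ± 0.53 and 1.80 ± 0.52 and the feedback inhibitor Tnfaip3 by 2.52 ± 0.51 and 1.71 ± 0.49, of which the Sox9-Halo values lay at the threshold (edgeR adjusted p = 0.00999 and 0.00996), while Cebpa, a C/EBP factor of differentiated epithelium, fell by log2 values of -2.36 ± 0.29 and -3.47 ± 0.31. Rela was not called in either (-0.44 ± 0.25 and 0.33 ± 0.25).

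Of 24 microbial pattern receptors and adaptors, 9 rose and 1 fell in Sox9-mEGFP spheroids, and 6 rose and 7 fell in Sox9-Halo spheroids. Over all genes 15.3% were higher and 12.1% lower in the former, and 13.6% higher and 15.3% lower in the latter. The lipopolysaccharide receptor Tlr4 averaged 0.0613 CPM in the control and 15.7 and 8.86 CPM in the 2 spheroid groups. The inflammasome genes Pycard and Casp1 stood at 12.0 and 27.3 CPM in Sox9-mEGFP spheroids and at 0.0480 and 0.0659 CPM in Sox9-Halo spheroids, and Nlrp6, a sensor abundant in gut epithelium, was lower in Sox9-Halo than in Sox9-mEGFP spheroids by a log2 difference of -4.34 ± 0.40 (edgeR adjusted p = 1.57e-06). Between the spheroid groups 9 genes of this list were lower and 1 higher in Sox9-Halo spheroids, where 1683 and 630 of all 17560 genes were. By the test of the interaction the change from organoids to spheroids was lower in the Halo line for 7 and higher for 1. That test called 979 of all 17560 genes lower and 318 higher.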

How the data were processed

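Poly-A RNA of 15 cultures was sequenced as paired reads. Per the labels and the study's methods, the authors trimmed adapters with cutadapt 4.5, kept uniquely aligned reads with STAR and counted reads per gene with HTSeq 2.0.2 without using strand, against GRCm39. The deposited values used here are those raw counts, 1 table per library. Rows that name no gene were left out, among them reads on no feature (1.83% to 6.09% per library) and ambiguous reads (9.65% to 13.6%). The authors' tables of fold changes and p-values and their normalized count table were not used.

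Groups came from the labels. TMM scaling, a filter on low counts (filterByExpr) and edgeR's quasi-likelihood test (edgeR 4.0.16, R 4.3.3) were applied to all 15 libraries together, with Benjamini-Hochberg adjustment over 17560 genes in each of 9 comparisons. The call rule followed the study's thresholds: adjusted p up to 0.01, a change of 2-fold or more, and 10 normalized counts or more on average. All tests were two-sided. The edgeR fit was tried first on simulated counts, for the comparison of Sox9-Halo spheroids with Halo-NLS organoids alone. A library held 28062722 to 40559766 counts on genes, so 3 counts over a group correspond to 0.0270 to 0.0368 CPM. Floors of 3 counts and 95% exact intervals cover counting error only.

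The members and lists were chosen with earlier results of these data known. Named are all members, the 3 most abundant tested genes and, in each spheroid comparison with Halo-NLS, the 2 called genes with the largest change of each list, and the 3 genes most correlated with each member, with others described where they overlap or are paralogs of a member. From each list only some of these genes are described, and 1 result is not reported here. Of 78298 rows, 78168 matched GENCODE M39, which gave positions and exon lengths, and start windows came from RefSeq's GRCm38.p6 table, each matched exactly once to GRCm39.

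Same-numbered libraries deviated together in all 3 pairs only for Sox9-Halo organoids and spheroids (r = 0.311, 0.180 and 0.269 over 15718 genes), so a paired value is given there where it changed a call. Alternatives were DESeq2 1.42.0, its size factors, library sizes alone, no filter on low counts, the compared libraries alone, a replicate block, a laxer threshold and leaving out each library in turn.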

Additional observations from a re-analysis of the deposited data

Results flagged for a closer look

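For 4 genes the change from organoids to spheroids differed between the lines by a test of the difference itself, an interaction term in edgeR's quasi-likelihood fit. The change in the Halo line minus that in the mEGFP line was -8.58 for Pigr (adjusted p = 9.4e-07), which fell in all 3 spheroid libraries of both lines. It was -7.75 for Duox2 (adjusted p = 0.000595), -7.44 for Duoxa2 (adjusted p = 0.000941) and -6.31 for Nos2 (adjusted p = 0.00188). The Nos2 call was lost with a replicate block over the libraries of both lines (adjusted p = 0.0124). Duox2, Duoxa2 and Nos2 in every spheroid library of the mEGFP line lay above, and in every one of the Halo line below, the organoids of that line.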

How the results depend on the processing

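Of 655 alternative values of 49 results on the members, 605 kept their direction and their side of the threshold, 24 lost a call, 12 gained one and 14 changed sign, none of the last with a call in the main fit or the alternative. The cause of the reversals was not tested. Pigr in Sox9-mEGFP organoids against Halo-NLS (log2 fold change -0.08) was 0.13 with library sizes alone and -0.34 to 0.14 with 1 library left out. Nos2 in Sox9-Halo organoids against Halo-NLS (-0.04) was 0.24 with library sizes alone, 0.021 with no filter on low counts, 0.0044 with a replicate block over all libraries, and -0.49 to 0.17 with 1 library left out. With 1 library left out, Nos2 in Sox9-mEGFP organoids lay between -0.014 (without Sox9-mEGFP organoids replicate 1) and 1.30, Duox2 in Sox9-Halo organoids between -0.67 (without Sox9-Halo organoids replicate 2) and 1.19, and Lcn2 between the spheroid groups between -1.14 and 0.053 (without Sox9-Halo spheroids replicate 2). Library sizes alone moved the median of all genes against Halo-NLS to between 0.27 and 0.31. With no filter on low counts 1 member, Duox2, was called in Sox9-mEGFP organoids against Halo-NLS, and 6 instead of 4 in Sox9-Halo spheroids against Halo-NLS, Duoxa2 (adjusted p = 0.000885) and Nos2 (4.99e-06) added. The members called between spheroids and organoids of the mEGFP line numbered 3 to 5 with 1 library left out. Of 13 alternatives to the Duox2 result there, only 5 kept the call. A replicate block over all libraries ended the Duox2 call there (adjusted p = 0.0131), and fitting the compared libraries alone, with no block, ended that of Nos2 (0.0148). Both changes together ended the calls of Duox2 (0.0116) and Nos2 (0.0303) there and that of Nos2 for the line difference (0.0124), and beside the Nos2 result given in the report it changed no other member's call.

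The number of genes called in all depended more on the fit. In Sox9-mEGFP organoids against Halo-NLS it was 484, and 1234 with DESeq2, 1991 with no filter, 728 with library sizes alone, 103 from the compared libraries alone and 211 with the block added. In Sox9-Halo organoids it was 659, and 1661, 2357, 1177, 5 and 27 in the same order. Library sizes alone turned the split in these comparisons from 350 higher and 134 lower to 620 and 108, and from 438 and 221 to 1068 and 109. With 1 library left out the counts ran from 216 to 2184 and from 201 to 2370, in both cases lowest without Halo-NLS organoids replicate 2 and highest without replicate 1. Between the organoid lines it was 80, and 217 with DESeq2, 280 with no filter, 19 from the compared libraries, 9 with the block added, and 46 to 101 with 1 library left out. Sox9-mEGFP spheroids against Halo-NLS had 4823, and 2874 from the compared libraries with a block. An adjusted p of at most 0.05 with no fold threshold called between 188 and 8737 genes. Depth limits Saa1 and Saa2, which held at most 11 counts in a group. It also limits Duox2, Duoxa2 and Nos2 in Sox9-Halo spheroids and Lcn2 and Slpi in organoids, which rest on 5 counts or fewer per group.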
